A study of Mus musculus with 91 samples.

Results

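Cirbp and Rbm3, a pair of mouse genes for cold-inducible RNA-binding proteins, were followed over the day in neurons of the nucleus accumbens that carry the D1 or the D2 dopamine receptor. The members were the rows of the deposited count table with the Ensembl identifiers ENSMUSG00000045193 (Cirbp) and ENSMUSG00000031167 (Rbm3), 2 of 14355 genes, and both were present in each of the 91 libraries. These 2 classes, the D1 and D2 neurons, make up most of the projection neurons of this striatal region. Per the labels, Drd1-Cre mice (D1 neurons) and A2a-Cre mice (D2 neurons) were crossed with RiboTag mice, so that Cre-expressing cells carried a hemagglutinin tag on the ribosomal protein Rpl22. Tagged ribosomes were pulled down with an antibody, and the mRNA attached to them was sequenced, so a level here joins the amount of an mRNA and its attachment to ribosomes. The mice were over 10 weeks old, of both sexes, and kept under alternating light and dark phases of 12 h each. Tissue of 2 mice was pooled per sample at ZT 2, 6, 10, 14, 18 or 22, where ZT counts hours after lights on and lights went off at ZT 12. Cell type, sex and time gave 24 groups of 3 or 4 libraries: 22 D1 male, 23 D1 female, 23 D2 male and 23 D2 female libraries. Each cell type came from its own mouse line, so cell type and line cannot be told apart.

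Both proteins are small and glycine-rich, with a single RNA recognition motif, and their genes are known to be switched on when mammalian cells are mildly cooled. In mouse cells, CIRBP is known to bind transcripts of the circadian clock and to follow daily cycles of temperature, and RBM3 has been tied to the upkeep of synapses after cooling in mouse brain. The body temperature of mice is itself higher in the dark, active phase than in the light phase.

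Cirbp lies on chromosome 10 (chr10:80165990-80172786, RefSeq, GRCm38.p6) and Rbm3 on chromosome X (chrX:8138975-8145880). For Cirbp, RefSeq gave 2 start-site windows on the plus strand, each from 250 bases before to 50 bases after an annotated start. Both windows lie downstream of the first base listed for the gene, so the motif counts do not cover its upstream end. The windows are shown because a mild cold response element, TCCCCGCC, has been described in the mouse Cirbp promoter. Whether it bears on the daily course was not tested. Capitals mark that element and the GC box GGGCGG, the binding motif of Sp1, on either strand.
Cirbp window 1, chr10:80167589-80167888: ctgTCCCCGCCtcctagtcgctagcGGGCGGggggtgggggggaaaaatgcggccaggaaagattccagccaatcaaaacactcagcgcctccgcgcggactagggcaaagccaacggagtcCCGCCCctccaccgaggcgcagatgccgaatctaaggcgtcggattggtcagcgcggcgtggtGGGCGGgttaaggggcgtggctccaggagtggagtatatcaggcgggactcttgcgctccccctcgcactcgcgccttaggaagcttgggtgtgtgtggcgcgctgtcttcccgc
Cirbp window 2, chr10:80167921-80168220: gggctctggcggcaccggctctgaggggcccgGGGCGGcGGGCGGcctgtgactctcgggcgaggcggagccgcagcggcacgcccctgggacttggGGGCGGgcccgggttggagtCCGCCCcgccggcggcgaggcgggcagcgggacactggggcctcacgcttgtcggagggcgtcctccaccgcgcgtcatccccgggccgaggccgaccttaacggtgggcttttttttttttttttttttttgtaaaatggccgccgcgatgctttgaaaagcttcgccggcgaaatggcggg
Window 1 held 1 copy of TCCCCGCC, whose first base lies at -247 from the start, and 3 GC boxes at -225, -128 and -65. Window 2 held 4 GC boxes and no TCCCCGCC. TCCCCGCC was found in 5.38% and GGGCGG in 35.7% of the 32851 RefSeq windows of this length, both strands counted and with no overlap between the 2 motifs in Cirbp. The E-box CACGTG, the D-box TTATGTAA, the cAMP response element TGACGTCA and the heat shock element GAANNTTC had 0 matches in both Cirbp windows, against 7.15%, 0.938%, 1.79% and 7.86% of all windows. The element was named from this promoter, so its match is a description.

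Total counts ranged from 6872165 to 24665262 per library (median 14047068). Cirbp had 109 to 686 counts and Rbm3 152 to 575 counts in a library. Levels are given as CPM, the share of a library's counts scaled by edgeR's TMM method, and averaged 26.7 ± 6.30 CPM for Cirbp and 25.1 ± 6.42 CPM for Rbm3 over all libraries (SD, n = 91). RefSeq also lists a pseudogene, Rbm3-ps, and the sources used here do not say how reads that match both were counted, so the Rbm3 level is uncertain to that extent. CPM is not corrected for length, so the levels of the 2 genes are not set against each other. 3 D1 male libraries stood apart: ZT 10 B, ZT 22 B and ZT 18 D listed 789, 722 and 205 genes at 0 counts, against 0 to 3 genes in the other D1 libraries. D1 results are therefore also given without them. The letters A to E come from the sample titles, and letter E occurs once.

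In D1 neurons, Cirbp mRNA followed the day, with its highest levels late in the light phase. At ZT 2 its lowest, median and highest library had 22.0, 29.5 and 33.9 CPM, at ZT 6 27.4, 32.7 and 37.6 CPM, and at ZT 10 28.3, 33.9 and 47.0 CPM. In the dark phase the same values were 20.2, 25.6 and 30.9 CPM at ZT 14, 14.2, 20.2 and 34.1 CPM at ZT 18, and 15.5, 24.8 and 27.5 CPM at ZT 22. Means ran through 28.5 ± 3.80, 33.2 ± 3.17, 34.5 ± 5.69, 25.0 ± 3.76, 22.1 ± 6.78 and 22.3 ± 4.87 CPM in the same order (SD, n = 8, 8, 8, 7, 6 and 8 libraries). Only 1 of the 6 libraries at ZT 18, the letter A female library at 34.1 CPM, lay above the lowest library at ZT 10, and the highest library of all, at 47.0 CPM, was the ZT 10 B male library that stood apart. No pair of neighbours in the order of the 6 means differed past the threshold (exact permutation tests, two-sided, adjusted p from 0.185 to 0.88 over 20 pairs of both genes and cell types). Such pairs hold the closest means, so their tests say little about whether the times differ. The highest and lowest means were picked from the data and were not tested against each other.

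A 24 h cosine fitted to the Cirbp counts had an amplitude, the height from mean to peak, of 0.36 ± 0.05 on the log2 scale (SE, n = 45) and peaked at ZT 7.41 ± 0.57 h. That is a 1.65-fold span from trough to peak. The adjusted p was 0.000558 (edgeR's quasi-likelihood test, with p adjusted by Benjamini and Hochberg's method over every gene), which ranked 7 of 14355 genes. This test called 71 genes rhythmic, 0.495% of those tested, and the median amplitude was 0.31 among the called genes and 0.09 among all genes. Without the 3 libraries that stood apart the amplitude was 0.30 and the adjusted p 0.00135. Without letter C the amplitude was 0.37 and the adjusted p 0.0585, where 13 of 14355 genes were called. The Cirbp call was lost there alone among the alternatives run.

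Cirbp mRNA followed the day in D2 neurons too. Its lowest, median and highest library had 18.3, 26.9 and 30.7 CPM at ZT 2, 26.5, 29.1 and 32.9 CPM at ZT 6, and 23.3, 32.1 and 39.0 CPM at ZT 10. In the dark phase the values were 18.4, 23.0 and 36.8 CPM at ZT 14, 16.1, 17.9 and 20.8 CPM at ZT 18, and 20.7, 24.5 and 27.5 CPM at ZT 22. The 8 libraries at ZT 18 formed the tightest and lowest set of Cirbp in D2 neurons, at 18.2 ± 1.80 CPM, and none reached the lowest of the 8 libraries at ZT 10 (31.6 ± 5.21 CPM, SD). ZT 22 (24.2 ± 2.42 CPM) stood above ZT 18 by 0.41 on the log2 scale (exact permutation test, two-sided, n = 8 each, adjusted p = 0.00622). This was the only pair of neighbours in the order of the means that passed.

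The fitted D2 rhythm of Cirbp had an amplitude of 0.33 ± 0.05 (log2, SE, n = 46), a peak at ZT 6.88 ± 0.56 h and a 1.57-fold span from trough to peak. The adjusted p was 0.000171 (edgeR), which ranked 18, in a test that called 422 genes (2.94%). The median amplitude of the called D2 genes was 0.17 and that of all genes 0.07. The call held in every alternative tried for it, with amplitudes between 0.31 and 0.40.

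**Figure D1:**
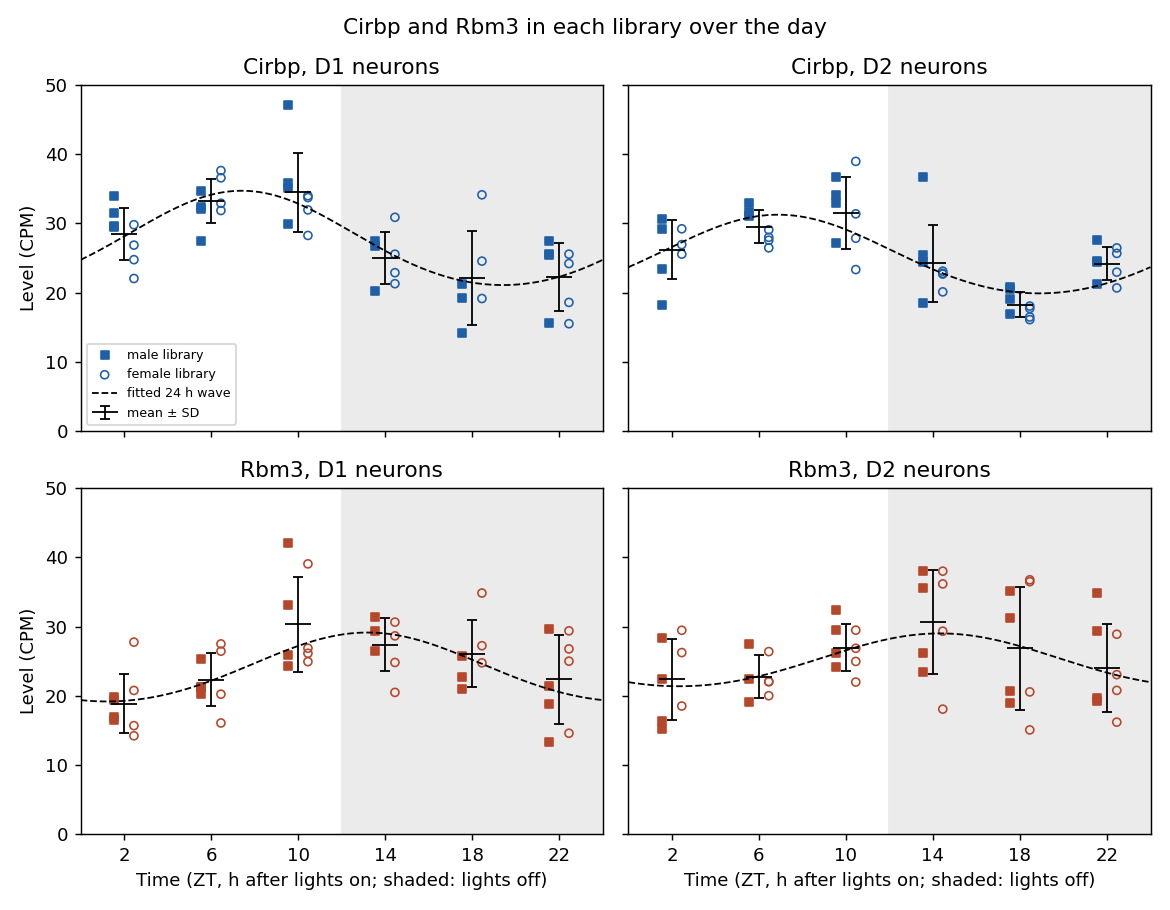
Levels of Cirbp (top) and Rbm3 (bottom) in CPM against time of day in ZT hours, for D1 (left) and D2 neurons (right); filled squares are male and open circles female libraries, bars give the mean ± SD, the dashed line is the fitted 24 h cosine drawn around the mean log2 level, and the dark phase is shaded. Cirbp is highest at ZT 10 in both cell types (34.5 and 31.6 CPM on average), while Rbm3 averages are highest at ZT 10 in D1 (30.3 CPM) and at ZT 14 in D2 neurons (30.6 CPM).

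Rbm3 followed a later course in D1 neurons. At ZT 2 its lowest, median and highest library had 14.2, 18.2 and 27.8 CPM, at ZT 6 16.1, 21.3 and 27.5 CPM, and at ZT 10 24.3, 26.5 and 42.1 CPM. Later values were 20.5, 28.7 and 31.4 CPM at ZT 14, 21.0, 25.3 and 34.8 CPM at ZT 18, and 13.3, 23.2 and 29.7 CPM at ZT 22. The means were 18.9 ± 4.22, 22.3 ± 3.82, 30.3 ± 6.92, 27.4 ± 3.82, 26.0 ± 4.84 and 22.4 ± 6.39 CPM from ZT 2 to ZT 22 (SD). At ZT 2 only 1 of the 8 libraries, the letter C female library at 27.8 CPM, exceeded the lowest library at ZT 10. The ZT 10 B and ZT 22 B male libraries that stood apart held the highest (42.1 CPM) and the lowest (13.3 CPM) Rbm3 level of all D1 libraries.

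The fitted D1 rhythm of Rbm3 had an amplitude of 0.30 ± 0.06 (log2, SE, n = 45), a peak at ZT 13.2 ± 0.82 h and a 1.52-fold span. Its adjusted p was 0.0364 (edgeR), which ranked 46, within the 71 calls. Without the 3 libraries the amplitude was 0.27 and the adjusted p 0.0362, with 1.23% of genes called. The call was lost without letter A (adjusted p = 0.148), B (0.0922), C (0.0841) or D (0.391), with amplitudes from 0.24 to 0.33, and with time as a factor of 6 levels (0.263). Over all genes, 22, 54, 13 and 18 were called without A, B, C and D, and 26 with time as a factor, against 71. The Rbm3 call held in every other alternative run. With the letter as a block the amplitude was 0.30 and the adjusted p 0.00467 (edgeR), where 162 of 14355 genes were called. With depth as a covariate the values were 0.28 and 0.0193, where 314 genes were called.

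In D2 neurons the highest mean of Rbm3 lay at ZT 14, but libraries of the same time differed widely. The lowest, median and highest library had 15.2, 22.5 and 29.5 CPM at ZT 2, 19.0, 22.1 and 27.4 CPM at ZT 6, and 22.0, 26.5 and 32.4 CPM at ZT 10. The values were 18.1, 32.4 and 38.1 CPM at ZT 14, 15.1, 26.0 and 36.8 CPM at ZT 18, and 16.2, 21.9 and 34.8 CPM at ZT 22. Every time thus overlapped every other. No pair of neighbours in the order of the means passed for Rbm3 in either cell type, in tests that did not pair the letters. These pairs hold the closest means, so the tests do not show that the times are alike. The fitted amplitude was 0.22 ± 0.07 (log2, SE, n = 46), with a peak at ZT 14.3 ± 1.26 h, a 1.36-fold span and a 95% interval of the amplitude from 0.03 to 0.41. Its adjusted p of 0.215 (edgeR) missed the threshold in this fit, which leaves the letter out. With the letter as a block, which pairs the D2 libraries, it was 0.000127 (edgeR), with 22.3% of genes called.

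The spread of Rbm3 among D2 libraries of the same time went with the letter. Rbm3 averaged 19.7 ± 3.48 CPM in letter A, 22.0 ± 3.88 in B, 29.1 ± 5.52 in C and 31.4 ± 4.73 in D (SD, n = 12, 10, 12 and 12). At ZT 18 the 2 libraries of letter A had 15.1 and 19.0 CPM and those of B 20.6 and 20.7 CPM, whereas those of C had 31.3 and 36.8 CPM and those of D 35.1 and 36.5 CPM. Within each letter the D2 mean at ZT 14 lay above that at ZT 2: 17.4 CPM at ZT 2 and 20.8 CPM at ZT 14 in A, 15.2 and 27.8 CPM in B, 24.4 and 36.8 CPM in C, and 28.9 and 37.1 CPM in D. These times were picked as the highest and lowest means of the same libraries, so this is a description only. Letter B at ZT 2 is 1 library, and letter A was highest at ZT 10 (25.55 CPM). The letter held 75.1% of the variance of log2 Rbm3 within groups of D2 libraries, and 1.03% of that of Cirbp. In D1 neurons the shares were 41.8% for Rbm3 and 29.1% for Cirbp.

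D2 libraries of letters A and B were also deeper, with mean total counts of 19727033 and 16241681, against 11336342 for C and 10904585 for D, and what else the letters stand for was not tested. The letters paired the D2 libraries over all genes, so the fit with the letter as a block is given here: the Rbm3 amplitude was then 0.23, the peak ZT 14.0 and the adjusted p 0.000127 (edgeR), in a test that called 3198 genes (22.3%). With log2 depth as a covariate instead, the amplitude was 0.24 and the adjusted p 0.00731, with 7.5% of genes called. The block thus moved the call of Rbm3 and hardly its size. The Cirbp call in D2 neurons stood with the block too (amplitude 0.32, adjusted p = 1.61e-05).

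Within letters, the D2 rhythm of Rbm3 had amplitudes of 0.25 ± 0.07 (A), 0.29 ± 0.07 (B), 0.35 ± 0.04 (C) and 0.23 ± 0.06 (D) on the log2 scale (SE). Its peaks lay at ZT 10.2, 13.2, 16.2 and 15.4. Cirbp peaked at ZT 8.93, 6.84, 6.10 and 6.06 in the same letters. In D1 neurons Rbm3 averaged 22.8 CPM in letter A, 20.7 in B, 29.0 in C and 24.2 in D, and its amplitudes within these letters were 0.30 ± 0.10, 0.55 ± 0.13, 0.22 ± 0.09 and 0.24 ± 0.07 (log2, SE, n = 12, 9, 12 and 11). Cirbp in D1 neurons had amplitudes of 0.23 ± 0.10, 0.53 ± 0.19, 0.37 ± 0.06 and 0.42 ± 0.09. Letter B, with the largest amplitude of both genes, holds 2 of the 3 libraries that stood apart. A test of whether the rhythm differed between letters gave an adjusted p of 0.932 for Rbm3 and 0.938 for Cirbp in D2 neurons, and 1 for both in D1 neurons (edgeR, 6 degrees of freedom). It called 0 genes in either cell type (0%), with 609 genes in D2 and 502 in D1 neurons at an unadjusted p under 0.05, among them Rbm3 in D2 neurons (unadjusted p = 0.00134).

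**Figure D2:**
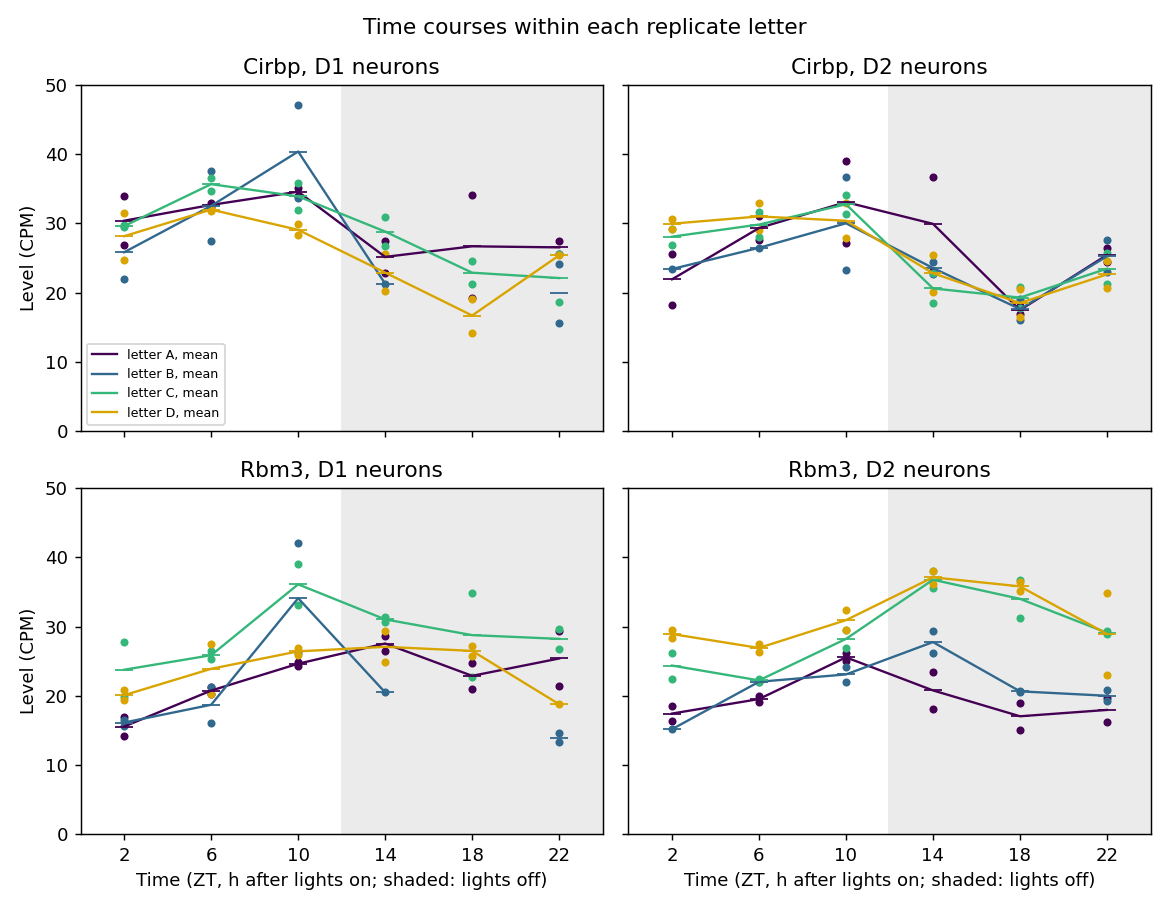
Levels in CPM against ZT hours for Cirbp (top) and Rbm3 (bottom) in D1 (left) and D2 neurons (right), coloured by replicate letter; points are libraries and lines join the letter means (1 or 2 libraries each), broken where a letter has none, and the single letter E library is left out. Rbm3 in D2 neurons splits by letter, with means of 19.7 CPM in A and 31.4 CPM in D. The D2 Cirbp lines of the 4 letters cross, from 20.6 (C) to 29.9 CPM (A) at ZT 14 and from 17.5 (A) to 19.3 CPM (C) at ZT 18.

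The fitted peak of Rbm3 lay later than that of Cirbp, by 5.78 h in D1 neurons, where both rhythms passed. In D2 neurons it was later by 7.44 h, and there the Rbm3 rhythm passed only with the letter block or depth in the fit. With the block the D2 gap was 7.1 h. The gap itself was not tested, and it ran from 5.26 to 6.63 h in D1 and from 5.88 to 8.97 h in D2 neurons over the alternatives. By sex, from the terms of the same fits, the gap was 5.63 h in D1 males, 6.10 h in D1 females, 6.73 h in D2 males and 8.11 h in D2 females. In these fits Rbm3 passed in neither sex of either cell type, and with the letter block it passed in both sexes of D2 neurons. With limma voom the gap of D2 males was 3.25 h. Within letters it ran from 3.26 h (B) to 8.05 h (A) in D1 neurons. In D2 neurons it was 1.24 h in letter A, 6.39 h in B, 10.1 h in C and 9.38 h in D, so letter A was the one in which both genes peaked close together.

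The ratio of Rbm3 CPM to Cirbp CPM was taken within each library, which removes the scaling between libraries. A ratio to a gene that follows the day does so even where the other gene is flat, so its rhythm is no evidence of one in Rbm3. In D1 neurons it averaged 0.669 ± 0.153 at ZT 2, 0.678 ± 0.130 at ZT 6 and 0.883 ± 0.166 at ZT 10 (SD). It then averaged 1.11 ± 0.190 at ZT 14, 1.26 ± 0.375 at ZT 18 and 1.04 ± 0.358 at ZT 22. In D2 neurons the means were 0.849 ± 0.136, 0.772 ± 0.0981, 0.871 ± 0.151, 1.33 ± 0.472, 1.48 ± 0.491 and 1.01 ± 0.301 in the same order. The mean ratio was lowest at ZT 2 in D1 and at ZT 6 in D2 neurons and highest at ZT 18 in both, and since the genes differ in length only its change over the day is read.

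The log2 ratio followed a 24 h cosine of amplitude 0.47 ± 0.08 peaking at ZT 16.7 ± 0.59 h in D1 neurons (SE, n = 45) and of 0.44 ± 0.08 peaking at ZT 17.0 ± 0.72 h in D2 neurons (n = 46). These are 1.92-fold and 1.83-fold spans. Permuting the times within sex gave p = 1e-05 in D1 neurons, the smallest that 100000 permutations can give, and p = 5e-05 in D2 neurons (adjusted 3e-05 and 0.0001 over 6 tests). In D1 males and females the amplitudes were 0.55 (adjusted permutation p = 3e-05) and 0.43 (0.0113), and in D2 males and females 0.45 (0.00858) and 0.43 (0.0113). The ratio passed with the letter block, without each letter in turn and without the 3 libraries, up to a permutation p of 0.0067 without letter C in D2 neurons. Without the 3 libraries the D1 amplitude was 0.44 (permutation p = 2e-05). In letter A of D2 neurons alone the amplitude was 0.12 ± 0.12, against 0.43 to 0.69 in letters B, C and D.

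**Figure D3:**
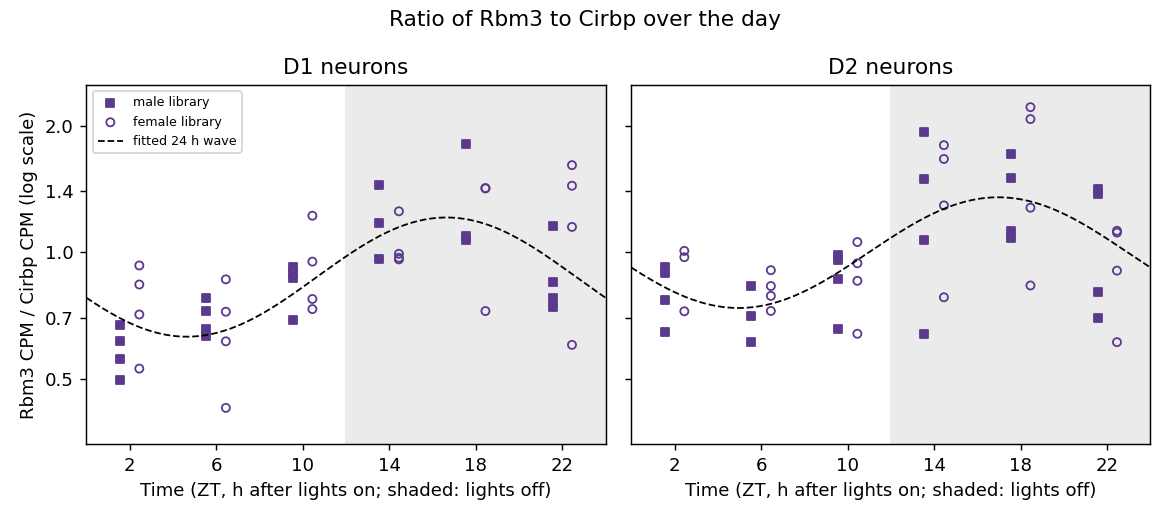
Ratio of Rbm3 CPM to Cirbp CPM in each library (log scale) against ZT hours in D1 (left) and D2 neurons (right); filled squares are male and open circles female libraries, and the dashed line is the fitted 24 h cosine. The ratio averages 0.678 at ZT 6 and 1.26 at ZT 18 in D1 neurons, and 0.772 and 1.48 in D2 neurons.

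Levels over the whole day were compared between the cell types. Cirbp ranged over 14.2 to 47.0 CPM (median 27.5) in D1 and 16.1 to 39.0 CPM (median 25.5) in D2 libraries, and Rbm3 over 13.3 to 42.1 CPM (median 24.9) in D1 and 15.1 to 38.1 CPM (median 25.6) in D2 libraries. The ranges overlapped almost wholly. D1 minus D2 was 0.10 on the log2 scale for Cirbp (95% interval -0.01 to 0.20, adjusted p = 0.188, edgeR) and -0.06 for Rbm3 (-0.20 to 0.07, adjusted p = 0.529). Neither gene was among the 2770 genes (19.3%) called different between the cell types (9.44% higher and 9.86% lower in D1). Without the 3 libraries and with the letter as a block the Cirbp difference was 0.12 (adjusted p = 0.0341, where 42.2% of genes were called), and without letter D the Rbm3 difference turned to 0.07. The block here gives a letter the same effect in both cell types, although the letters were not taken to pair D1 libraries. CPM is a share of a library's counts, so it does not give the RNA per cell. RNA of untagged cells carried along in the pull-down was not measured here.

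The rhythms themselves were also compared between D1 and D2 neurons. The difference of the fitted waves had an amplitude of 0.06 for Cirbp (95% interval 0 to 0.24, adjusted p = 0.882) and 0.11 for Rbm3 (0 to 0.35, adjusted p = 0.826, edgeR), in a test that called 2 genes (0.0139%). These intervals span the shortest and longest wave in the joint confidence region of the cosine and sine terms. The fitted peaks of D1 minus D2 neurons differed by 0.53 h for Cirbp, with SEs of 0.57 and 0.56 h of the 2 peaks, and by -1.13 h for Rbm3, with SEs of 0.82 and 1.26 h. Over the alternatives the differences ran from -0.073 to 1.29 h and from -2.38 to 1.83 h, so neither has a settled direction.

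By sex, Cirbp averaged 28.3 ± 7.40 CPM in D1 males and 27.5 ± 6.08 CPM in D1 females, and 26.5 ± 6.11 CPM in D2 males and 24.7 ± 5.29 CPM in D2 females (SD). Rbm3 averaged 23.9 ± 6.44 CPM in D1 males and 24.9 ± 6.18 CPM in D1 females, and 25.9 ± 6.58 CPM in D2 males and 25.5 ± 6.73 CPM in D2 females. Male minus female in D1 neurons was 0.02 for Cirbp (95% interval -0.14 to 0.17, adjusted p = 0.938, edgeR) and -0.06 for Rbm3 (-0.24 to 0.12, 0.758). In D2 neurons it was 0.11 for Cirbp (-0.03 to 0.25, adjusted p = 0.926) and 0.02 for Rbm3 (-0.19 to 0.23, 0.963). Neither was among the 6 genes called in D1 neurons (0.0418%, with 0.00697% higher and 0.0348% lower in males). Nor was either among the 31 called in D2 neurons (0.216%, with 0.00697% higher and 0.209% lower in males). With the letter as a block the D2 differences were 0.11 for Cirbp (adjusted p = 0.26) and 0.02 for Rbm3 (0.848, edgeR). That fit called 1357 of 14355 genes.

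Taken sex by sex, the rhythm of Cirbp passed in D1 males (amplitude 0.42 ± 0.08, adjusted p = 0.0494, where 0.0418% of genes were called), in D2 males (0.33 ± 0.07, 0.0469, of 0.237%) and in D2 females (0.34 ± 0.07, 0.029, of 0.495%). It missed in D1 females (0.31 ± 0.08, adjusted p = 0.543, of 0.0279%). Rbm3 passed in none of the 4, with amplitudes of 0.37 ± 0.09 in D1 males, 0.25 ± 0.09 in D1 females, 0.25 ± 0.10 in D2 males and 0.19 ± 0.11 in D2 females (adjusted p = 0.181, 1, 0.802 and 0.88, edgeR). With the letter block Rbm3 passed in D2 males (adjusted p = 0.00534, where 9.11% of genes were called) and D2 females (0.0391, of 12.5%).

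The passes of Cirbp in a single sex were mostly lost when a letter was left out. In D1 males the call was lost without each of the 4 letters in turn (adjusted p = 0.102 to 0.485, edgeR) and without the 3 libraries that stood apart (amplitude 0.30, adjusted p = 0.197). In D2 males it was lost without letter B (0.49), C (0.819) or D (0.296), and in D2 females without B (0.167), C (0.279) or D (0.303). These runs hold fewer libraries, and most called fewer genes. In D1 males 0, 8, 0 and 2 genes were called without A, B, C and D, against 6 in the full fit. In D2 males 4, 3 and 9 were called without B, C and D, against 34. In D2 females 16, 7 and 20 were called, against 71. Without a letter the amplitudes were 0.39 to 0.46 in D1 males, 0.31 to 0.37 in D2 males and 0.30 to 0.35 in D2 females.

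The male and female waves differed by amplitudes of 0.17 for Cirbp (95% interval 0 to 0.45) and 0.19 for Rbm3 (0 to 0.50) in D1 neurons, and of 0.13 (0 to 0.37) and 0.06 (0 to 0.43) in D2 neurons. The adjusted p was 1 for each. This test called 0 genes in either cell type (edgeR), with 226 genes in D1 and 389 in D2 neurons at an unadjusted p under 0.05. With the letter as a block the D2 waves differed by 0.13 for Cirbp (adjusted p = 0.721) and 0.07 for Rbm3 (0.846, edgeR). That fit called 3 of 14355 genes. By limma voom with quality weights 2885 of 14355 genes in D1 and 3 in D2 neurons were called, and by DESeq2 0 and 2, with neither Cirbp nor Rbm3 among them. In D1 neurons limma voom gave an adjusted p of 0.0749 for Cirbp and 0.0903 for Rbm3, not far from the threshold.

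**Figure D4:**
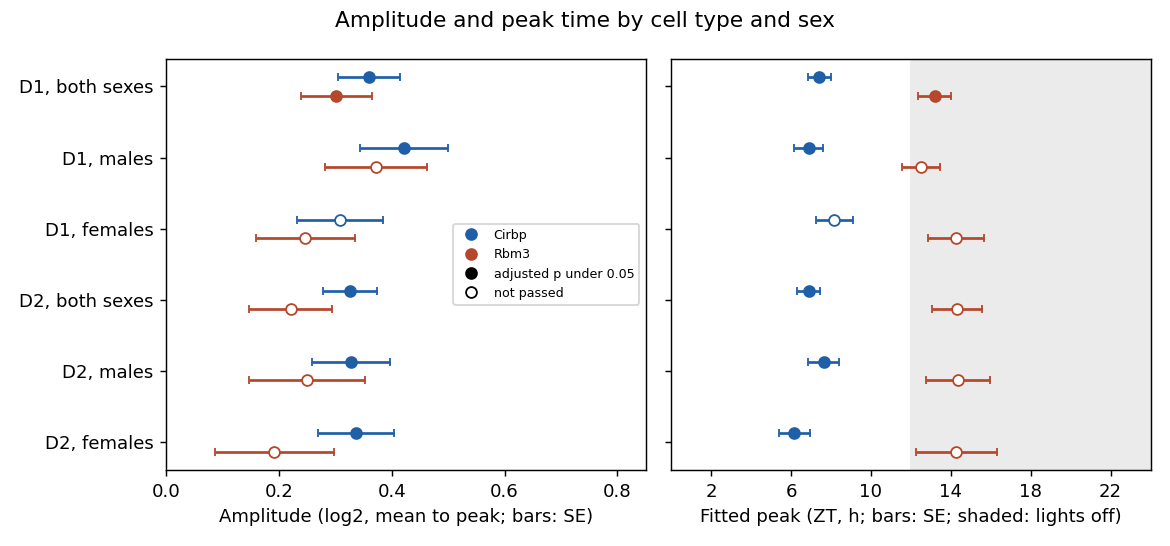
Fitted amplitude (left, log2 units from mean to peak) and peak time (right, ZT hours, dark phase shaded) of Cirbp and Rbm3 by cell type and sex; points are estimates, bars are SE, and filled points passed an adjusted p under 0.05. Every Cirbp peak lies between ZT 6.16 and ZT 8.15 and every Rbm3 peak between ZT 12.5 and ZT 14.4.

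Across libraries, the levels of the 2 genes showed little linear relation. Their fitted peaks lay 5.78 h apart in D1 and 7.44 h in D2 neurons, and 24 h waves this far apart can give an r near 0. A low r thus does not tell whether the genes are linked. On deviations from group means, which take out the time, r was 0.232 in D1 and 0.0484 in D2 neurons (permutation p = 0.125 and 0.751). Pearson's r of log2 CPM was 0.190 and Spearman's rho 0.0796 in D1 neurons (n = 45, permutation p = 0.213 and 0.603, adjusted 0.851 and 0.991 over 4 tests), and -0.00164 and 0.00185 in D2 neurons (n = 46, adjusted permutation p = 0.991 for both). Leaving out the 2 libraries farthest from the median of Cirbp gave r = 0.257 in D1 and 0.0315 in D2 neurons, and leaving out the 3 libraries that stood apart gave -0.0113 in D1 neurons. Within letters r was -0.117, 0.722, 0.173 and -0.362 for A to D in D1 and 0.692, 0.171, -0.730 and -0.383 in D2 neurons (n = 9 to 12, no test). A pooled r near 0 in D2 neurons thus joined letters of opposite sign.

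Within groups of cell type, sex and time, log2 levels varied with an SD of 0.25 for Cirbp and 0.32 for Rbm3 in D1 and of 0.21 and 0.38 in D2 neurons. Counting error alone gives 0.08 for either gene in either cell type. The time means of a cell type had an SD of 0.29 for Cirbp and 0.25 for Rbm3 in D1 and 0.28 and 0.17 in D2 neurons. In both cell types the SD of the time means was thus the larger for Cirbp and the smaller for Rbm3. A time mean joins 6 to 8 libraries and the SD within groups is that of single libraries, so these are unlike measures. They do not test an effect of time. For Rbm3 in D2 neurons the letter held 75.1% of the variance within groups.

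The genes with time courses most like those of Cirbp and Rbm3 were sought among 9809 genes of at least 10 CPM, over 24 group means centred on their cell type and sex. For Cirbp these were ENSMUSG00000021704 (r = 0.904) and ENSMUSG00000031196 (r = 0.887), with D1 amplitudes of 0.08 and 0.13 on the log2 scale. For Rbm3 they were ENSMUSG00000028957 (r = 0.888, D1 amplitude 0.26, D1 peak ZT 13.2) and ENSMUSG00000034120 (r = 0.885, 0.11, ZT 12.9). Cirbp and Rbm3 correlated with each other at r = 0.0494 on the same measure, a value that waves with such a gap between their peaks can give. None of these 4 genes passed the rhythm test in either cell type, and the group means of a cell type share the letters of their libraries.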

How the data were processed

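Ribosome-attached mRNA of D1 and D2 neurons was measured in 91 libraries. The authors deposited raw counts per gene, whole numbers with no normalization, for 14355 Ensembl identifiers. Per the submitters' processing notes, the tools were FastQC 0.11.7, HTSeq 0.10.0 and HISAT2, its version not stated in the sources used here. The builds GRCm38 and GRCh38 are named there without a role. A filter on log CPM appears in the file's name, but its threshold and the handling of strand are not stated in the sources used here. Groups come from the labels of cell type, sex and time, and letters from the titles. Homogenate and astrocyte samples were not analysed here.

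The members, lists and alternatives were chosen with earlier results of these data known. The deposited counts were turned into CPM with TMM-scaled totals. Rhythm was tested in R 4.3.3 with edgeR 4.0.16, using a mean, cosine and sine term of 24 h for each sex (and cell type, in the fit of all 91 libraries), TMM and the quasi-likelihood test. Adjusted p-values are Benjamini-Hochberg values over every gene, called under 0.05. Rhythm results average the terms of both sexes. SEs of amplitude and peak come from the delta method. Intervals are 95%, for a wave from the joint confidence region of its cosine and sine terms. The scripts were tested on simulated data. Alternatives were RLE size factors, filterByExpr, DESeq2 1.42.0, limma 3.58.1 (on log2(CPM + 1), or voom weighting each sample by quality), the letter as a block, each letter left out, the 3 libraries that stand apart left out, time as a factor, 1 rhythm for both sexes, and depth as a covariate. The test of rhythm between letters was chosen after the time courses of the letters had been seen. Permutation tests of the log2 ratio and of correlations used SciPy 1.17.1 with 100000 permutations, two-sided. Times next to each other in the order of their means were compared by exact permutation tests.

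The letters were checked as a pairing by correlating the libraries' deviations from their group means. In D2 neurons 100% of 243 same-letter pairs exceeded 0.1 (median 0.73, lowest 0.20), so the letters pair D2 libraries. The main D2 fits leave the letter out, so the D2 fits with the letter as a block are the paired ones. In D1 neurons 68.6% of 223 pairs did (lowest -0.62), so they were not taken to pair there. No library was a copy of another of its group: the lowest mean chi-square per gene over 129 pairs was 4.24, where sampling noise gives about 1. The labels do not say that the libraries of a group came from separate animals beyond the pooling of mice, so p-values measure the spread between these samples.

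The genes named are Cirbp and Rbm3, plus the 2 genes of highest correlation with each among those of at least 10 CPM. Of the 49997 reference entries 0 carry an Ensembl identifier, so pathway lists and cell type markers could not be scored, and the labels of cell type were not checked against markers. Promoter windows are from RefSeq (GRCm38.p6), matched by symbol for 1 of the 2 genes.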

Additional observations from a re-analysis of the deposited data

Results flagged for a closer look

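Each group of 4 to 8 libraries was searched for a library set apart from the rest by a gap that is large against the whole range (Dixon's criterion), over 62 combinations of gene and group, and 4 libraries met it. Chance alone flags about 1 in 20 groups. In the D1 libraries at ZT 10, the male library of letter B had 47.0 CPM of Cirbp, against 35.8 CPM in the next highest of the 8, and this is a library that lists 789 genes at 0. In the D1 female libraries at ZT 10, letter C had 39.1 CPM of Rbm3, against 26.9 CPM in the next of the 4. In the D2 libraries at ZT 14, the male library of letter A had 36.8 CPM of Cirbp, against 25.5 CPM in the next of the 8. In the D2 female libraries at ZT 14, letter D had 20.1 CPM of Cirbp, against 22.7 CPM in the next of the 4. The cause was not tested.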

How the results depend on the processing

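The rhythm of Cirbp in D2 neurons stayed under an adjusted p of 0.05 in every alternative run for it. That of the Rbm3 to Cirbp ratio stayed under an unadjusted permutation p of 0.05 in both cell types. This is an unlike threshold, and a ratio to a gene that follows the day does so too. The correlations were also judged by an unadjusted permutation p. Of 328 recomputed values of 28 results, 289 kept their direction and their side of the threshold, 20 lost the call, 9 gained it and 10 changed sign or turned by over 6 h. With the replicate block (letters as pairs), Rbm3 had an amplitude of 0.23 in D2 neurons, 0.26 in D2 males and 0.19 in D2 females, all past the threshold, and male minus female of Cirbp in D1 neurons was -0.0026; other block values changed no call. With depth as a covariate Rbm3 in D2 neurons had 0.24 and passed. Without the 3 libraries Cirbp in D1 males had 0.30 and lost its call, the D1 minus D2 rhythm difference of Cirbp had 0.032 and turned its phase, and r of the genes in D1 neurons was -0.0113. With the block added, D1 minus D2 of Cirbp was 0.12 and Cirbp in D1 females had 0.29, both passing. These fits called 6057 and 28 of 14355 genes. The rhythm difference of Cirbp was then 0.028, turned. With time as a factor, calls were lost by Rbm3 in D1 neurons (0.34) and by Cirbp in D1 males (0.50), D2 males (0.38) and D2 females (0.41). These tests called 26, 4, 7 and 15 of 14355 genes. With limma voom, calls were gained by Cirbp in D1 females (0.41) and by Rbm3 in D1 males (0.31) and D1 females (0.22). It called 2524 of 14355 genes in D1 females and 89 in D1 males, against 4 and 6 in the main fit. By limma voom, male minus female of Rbm3 in D2 neurons was -0.021 and its rhythm difference 0.20, both turned. On deviations from group means r in D2 neurons was 0.0484. Leaving out each letter in turn gave amplitudes of 0.33 to 0.43 for Cirbp and 0.24 to 0.33 for Rbm3 in D1 neurons, and for Cirbp 0.39 to 0.46 in D1 males, 0.31 to 0.37 in D2 males and 0.30 to 0.35 in D2 females, with the call lost in 4, 3 and 3 of the 4 runs of each, and differences of -0.14 to 0.071 for Rbm3 D1 minus D2 and of -0.031 to 0.060 for male minus female of Rbm3 in D2 neurons. The cause was not tested. DESeq2 gave no adjusted p for the sex difference of either gene in D1 neurons.

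The number of genes called over all alternatives ran from 13 to 717 for D1 rhythms (71 as reported) and from 55 to 3198 for D2 rhythms (422). It ran from 1767 to 8248 for D1 minus D2 levels (2770), from 0 to 2266 for D1 minus D2 rhythms (2), from 2 to 1042 for sex differences of level in D1 (6) and from 7 to 1357 in D2 neurons (31). Rhythms of one sex ran from 0 to 89 in D1 males (6), 1 to 2524 in D1 females (4), 3 to 4357 in D2 males (34) and 7 to 1799 in D2 females (71). Sex differences of rhythm ran from 0 to 2885 in D1 and from 0 to 3 in D2 neurons (0 in both). Counting error alone gives an SD of 0.08 on the log2 scale for either gene, below the spread of 0.21 to 0.38 within groups.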
